A study of Mus musculus with 12 samples.

Results

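Pulmonary surfactant genes and other genes of type 2 alveolar cells were followed in bulk RNA of mouse lung. The set held 10 listed genes of the 54532 in the read count table, and all 10 were found by symbol: *Sftpa1*, *Sftpb*, *Sftpc*, *Sftpd*, *Abca3*, *Lamp3*, *Napsa*, *Lpcat1*, *Slc34a2* and *Etv5*. All 10 passed the low-count filter, which left 17473 tested genes, with at least 2562 counts for each member in every library. The 4 groups had 3 libraries each. WT_PBS was Cc10-Cre mice given PBS, and CKO_PBS was Cc10-Cre;Rhoafl/fl mice given PBS. WT_CRE and CKO_CRE were the same genotypes given the treatment labelled CRE, which the labels do not spell out and which is not the Cre recombinase. Every mouse therefore carried the Cc10-Cre allele, including those called WT, and the floxed *Rhoa* alleles were present in CKO mice alone. Cc10 is a product of club cells, the secretory cells of the airway, so Cre is driven there by design and type 2 cells are not its stated target. The sources used here give neither strain nor age.

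Type 2 cells line the alveoli, make surfactant and store it in lamellar bodies, from which it is secreted onto the alveolar surface. Surfactant is mostly phospholipid with 4 proteins. The products of *Sftpb* and *Sftpc* are small hydrophobic proteins that spread the lipid film and lower surface tension, while the products of *Sftpa1* and *Sftpd* are soluble collectins that bind microbes and particles. Several of these genes, *Sftpb*, *Sftpa1* and *Sftpd* among them, are also expressed by club cells, whereas *Sftpc* is the usual marker of type 2 cells.

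Library totals ran from 16250674 to 21559210 counts. By Y-linked counts the 3 WT_PBS libraries came from males, CKO_PBS held 1 female library, and each CRE group held 2. CKO_CRE replicate 2 stood apart from the other CKO_CRE libraries in many genes, and results that rest on it are given with and without it. The targeted gene *Rhoa* was at 481 ± 8.88, 449 ± 45.1, 525 ± 5.28 and 502 ± 40.0 CPM (counts scaled by library size) in WT_PBS, CKO_PBS, WT_CRE and CKO_CRE (SD, n = 3), which does not check a deletion in a minority of lung cells. CKO_PBS and both CRE groups thus held libraries of both sexes, so the replicates of each did not all come from 1 animal. All 12 libraries were taken as 1 batch, since the sample titles and library names name none. The labels do not state that every replicate is a separate animal, and p-values measure the spread between these samples.

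The levels of the 10 genes were read first, which does not check that they mark type 2 cells. *Sftpc* was the gene with the most counts in all 6 PBS libraries, and the 10 genes together took 2.84% ± 0.14 of all counts in WT_PBS and 3.02% ± 0.115 in CKO_PBS (SD, n = 3). Under CRE they took 2.37% ± 0.152 in WT and 2.58% ± 0.259 in CKO. Levels between genes were compared per kilobase of exon (RPKM, from the union of annotated exons). In WT_PBS the RPKM level was 14173 ± 815 for *Sftpc*, 1924 ± 92.3 for *Sftpb* and 1428 ± 80.3 for *Sftpa1*. *Slc34a2* at 474 ± 22.9 RPKM and *Sftpd* at 445 ± 50.7 RPKM followed, and these 2 did not differ beyond their spread. *Lamp3* was at 195 ± 10.8 RPKM, *Lpcat1* at 129 ± 7.04 RPKM, *Napsa* at 100 ± 5.01 RPKM, *Abca3* at 52.9 ± 2.42 RPKM and *Etv5* at 48.3 ± 1.47 RPKM.

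In WT_CRE the order of the RPKM levels was different. *Sftpc* stayed first at 9191 ± 949 RPKM, but *Sftpa1* was second at 2117 ± 145 RPKM. *Sftpb* at 1140 ± 51.5 RPKM and *Sftpd* at 1107 ± 109 RPKM overlapped, where *Sftpb* had been above *Sftpd* in every PBS library. The plot of CPM in each library shows the 10 genes side by side.

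**Figure D1:**
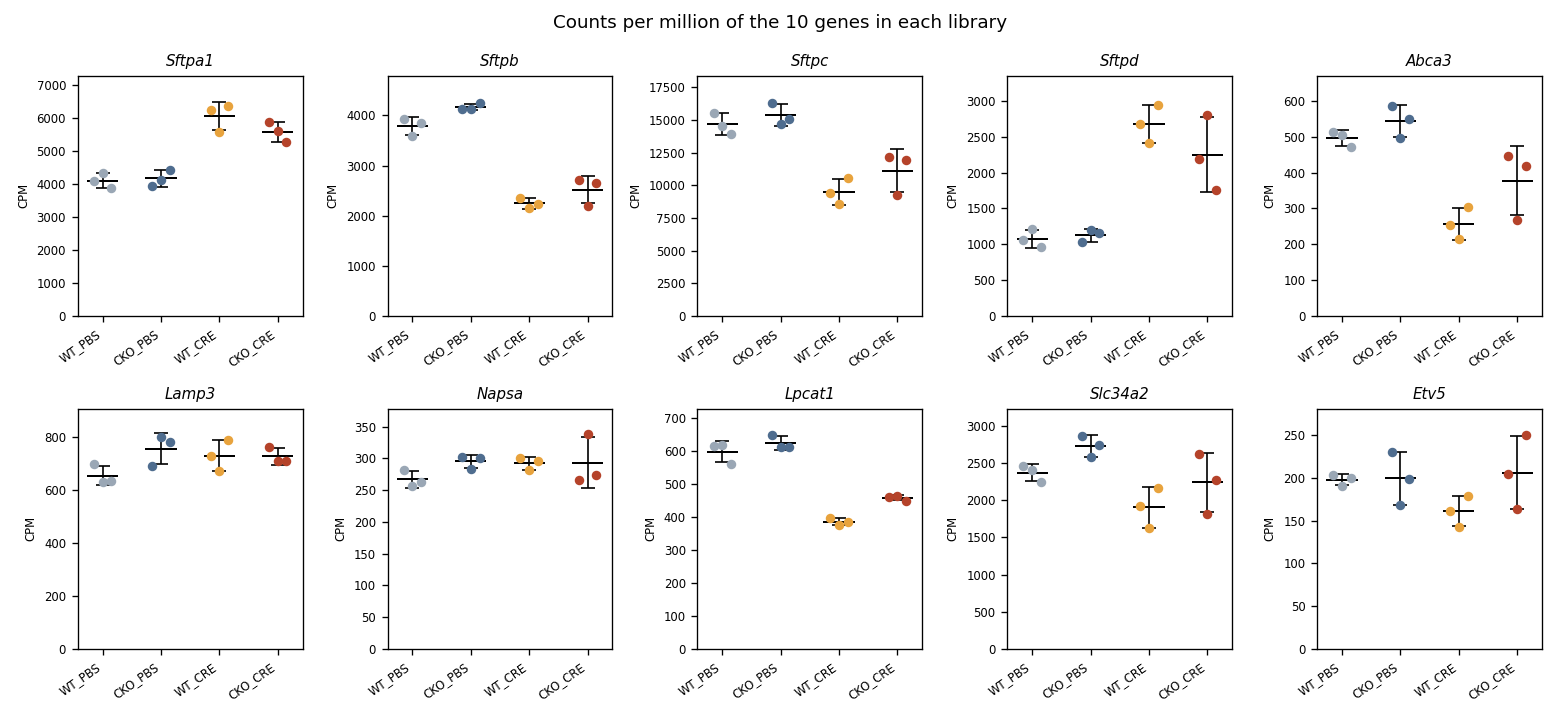
CPM (counts scaled by library size, vertical axes from 0) of each of the 10 genes in the 4 groups. Points are single libraries, and bars are the mean ± SD over 3 libraries. *Sftpa1* and *Sftpd* are higher in all 6 CRE libraries than in all 6 PBS libraries, and *Sftpb*, *Sftpc*, *Abca3* and *Lpcat1* are lower in all 6.

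The first question was how CRE treatment changed the surfactant genes in lungs with intact *Rhoa*. The 2 collectin genes rose and the 2 hydrophobic protein genes fell in WT lungs, along with the lipid transporter gene *Abca3* and the lipid synthesis gene *Lpcat1*. *Sftpd* rose 2.49-fold and *Sftpa1* 1.48-fold, and the 4 others fell 1.54-fold to 1.93-fold. *Lamp3*, *Napsa*, *Slc34a2* and *Etv5* did not pass. Calls rest on edgeR's quasi-likelihood test with Benjamini-Hochberg adjustment over all tested genes and a threshold of 0.05. By that rule 2 members were higher, where 28.6% of all tested genes were higher, and 4 were lower, where 28.4% were lower. With 57% of all tested genes called in this comparison, 6 of 10 is a share near the background, and so are the shares called in each direction. The PBS and CRE libraries of WT did not overlap for 8 of the 10 members, all but *Lamp3* and *Napsa*, where 68.5% of tested genes did not. The median log2 fold change was -0.31 over the 10 members and 0.01 over all tested genes. In bulk lung, fewer cells of a type and less RNA per cell cannot be told apart, and this holds for every fall described here.

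*Sftpd* (ENSMUSG00000021795, chromosome 14, 41172214 to 41185149, minus strand, GRCm38) encodes surfactant protein D. WT_PBS libraries held it at 1057, 1206 and 963 CPM, and WT_CRE libraries at 2670, 2418 and 2943 CPM. In CKO lungs it was at 1024, 1193 and 1156 CPM under PBS and at 2188, 2796 and 1756 CPM under CRE. All 6 CRE libraries lay above all 6 PBS libraries, and the CKO_CRE libraries were the most scattered. The log2 fold change was 1.32 ± 0.16 (SE) in WT (edgeR adjusted p = 7.45e-05) and 1.00 ± 0.16 in CKO (edgeR adjusted p = 0.000966).

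*Sftpa1* (ENSMUSG00000021789, chromosome 14, 41131782 to 41136452, plus strand) encodes surfactant protein A and lies near *Sftpd* on the same chromosome. Its WT_PBS levels were 4087, 4314 and 3855 CPM, against 6241, 5577 and 6342 CPM in WT_CRE. CKO libraries were at 3944, 4110 and 4429 CPM under PBS and at 5852, 5589 and 5251 CPM under CRE. Again no CRE library reached down to any PBS library. The rise was 0.57 ± 0.11 on the log2 scale in WT (edgeR adjusted p = 0.00105) and 0.42 ± 0.11 in CKO (edgeR adjusted p = 0.0108), and the CKO call was lost when only CKO libraries were fitted (adjusted p = 0.0742).

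*Sftpb* (ENSMUSG00000056370, chromosome 6, 72304610 to 72314371, plus strand) encodes surfactant protein B, without which lamellar bodies do not form properly. WT_PBS libraries were at 3935, 3584 and 3839 CPM and WT_CRE libraries at 2347, 2145 and 2236 CPM. They were 4132, 4130 and 4246 CPM in CKO_PBS and 2706, 2201 and 2656 CPM in CKO_CRE. Every CRE library was below every PBS library. *Sftpb* fell by 0.76 on the log2 scale in WT (SE 0.11, edgeR adjusted p = 0.00018) and fell by 0.73 in CKO (SE 0.11, edgeR adjusted p = 0.000627), the most similar pair of values between the genotypes among the 6 called members.

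The promoters of *Sftpa1* and *Sftpb* are shown because these genes moved in opposite directions under CRE while both are known targets of NKX2-1, the transcription factor of lung epithelium. The sequences are the 250 bases before the RefSeq start site (GRCm38.p6, plus strand, 5′ to 3′), at chr14:41131538-41131787 for *Sftpa1* and chr6:72304360-72304609 for *Sftpb*. Capitals mark matches to CTCAAG, a core of NKX2-1 sites, searched on both strands.
Sftpa1 promoter: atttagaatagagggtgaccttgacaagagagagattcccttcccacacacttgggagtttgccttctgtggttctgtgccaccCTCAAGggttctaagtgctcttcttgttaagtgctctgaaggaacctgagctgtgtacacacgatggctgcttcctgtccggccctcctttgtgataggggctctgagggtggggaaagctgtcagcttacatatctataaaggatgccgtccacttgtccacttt
Sftpb promoter: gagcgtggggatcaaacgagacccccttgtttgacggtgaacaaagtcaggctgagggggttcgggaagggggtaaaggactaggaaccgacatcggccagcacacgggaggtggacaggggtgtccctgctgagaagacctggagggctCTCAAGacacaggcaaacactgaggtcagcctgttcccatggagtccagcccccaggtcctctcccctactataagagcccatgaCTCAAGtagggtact
The *Sftpb* window held 2 matches, starting at -100 and -15 from the start site, and the *Sftpa1* window held 1, starting at -166. Of 32851 windows of this length in the promoter table, 13.3% held CTCAAG on either strand. Neither window matched TGTTTAC, a FOXA motif held by 3.17% of windows, or TTGCNNAA, a C/EBP motif held by 9.56%. Neither matched the STAT6 motif (TTC and GAA with any 4 bases between), STAT6 being the factor downstream of IL-4 and IL-13, and 5.85% of windows held that motif. The promoter table had entries for 7 of the 10 members, not for *Sftpc*, *Sftpd* and *Napsa*. Of those 7, only the 2 shown here, *Sftpa1* and *Sftpb*, matched CTCAAG. *Lamp3* and *Etv5* matched the FOXA motif and *Slc34a2* the C/EBP motif. These matches describe letters only, and *Nkx2-1* itself was at 208 ± 12.9 CPM in WT_PBS and 195 ± 3.28 CPM in WT_CRE (log2 -0.10 ± 0.08, edgeR adjusted p = 0.325).

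*Sftpc* (ENSMUSG00000022097, chromosome 14, 70520949 to 70524081, minus strand) encodes surfactant protein C. Its CPM was 15564, 14501 and 13900 under PBS in WT, and 9370, 8596 and 10544 under CRE. CKO_PBS libraries were at 16303, 14678 and 15074 CPM and CKO_CRE libraries at 12137, 9230 and 11967 CPM. The PBS and CRE libraries did not overlap in either genotype, and CKO_CRE replicate 2 was the CKO_CRE library within the WT_CRE range. *Sftpc* fell by 0.62 on the log2 scale in WT (SE 0.14, edgeR adjusted p = 0.00264) and fell by 0.47 in CKO (SE 0.14, edgeR adjusted p = 0.0207). The CKO call was lost without CKO_PBS replicate 1 (adjusted p = 0.0686) or replicate 3 (0.0548), or when only CKO libraries were fitted (0.102).

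*Abca3* (ENSMUSG00000024130, chromosome 17, 24351950 to 24410201, plus strand) encodes the transporter that loads phospholipid into lamellar bodies. Under PBS the WT libraries were at 513, 505 and 470 CPM, and under CRE at 253, 215 and 303 CPM. CKO libraries were at 587, 497 and 550 CPM under PBS and at 445, 268 and 419 CPM under CRE. The WT groups were far apart, while among CKO_CRE libraries replicate 2 alone was down at the WT_CRE level. *Abca3* fell by 0.95 on the log2 scale in WT (SE 0.18, edgeR adjusted p = 0.000841), the largest fall among the members. In CKO it fell by 0.53 (SE 0.18, edgeR adjusted p = 0.0317), and that call was lost without CKO_PBS replicate 1 (adjusted p = 0.0958) or 3 (0.0789) or CKO_CRE replicate 2 (0.0648), with sex as a covariate (0.0592), or in a fit of CKO libraries alone (0.0926). Without CKO_CRE replicate 2 the *Abca3* value in CKO was -0.33. *Abca3* overlaps *D330041H03Rik* on the opposite strand, a gene at no more than 4.59 CPM in any library.

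*Lpcat1* (ENSMUSG00000021608, chromosome 13, 73467197 to 73516422, plus strand) encodes the acyltransferase that makes the disaturated phosphatidylcholine of surfactant. In WT the level was 615, 620 and 561 CPM under PBS and 396, 377 and 385 CPM under CRE. CKO lungs had 648, 612 and 613 CPM under PBS and 462, 463 and 449 CPM under CRE. The libraries of each CRE group lay close together, below every PBS library. *Lpcat1* fell by 0.63 on the log2 scale in WT (SE 0.08, edgeR adjusted p = 8.82e-05) and fell by 0.45 in CKO (SE 0.08, edgeR adjusted p = 0.00167).

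The other 4 members stayed nearer their PBS levels. *Lamp3* (ENSMUSG00000041247, chromosome 16, 19653378 to 19706375, minus strand) encodes a membrane glycoprotein of lamellar bodies that mature dendritic cells also make. It was at 696, 631 and 635 CPM in WT_PBS, 726, 671 and 789 CPM in WT_CRE, 691, 798 and 779 CPM in CKO_PBS and 762, 709 and 707 CPM in CKO_CRE. The groups overlapped, and the log2 difference was 0.16 (95% interval -0.06 to 0.37, edgeR adjusted p = 0.193) in WT and -0.06 (-0.27 to 0.16, edgeR adjusted p = 0.665) in CKO. *Napsa* (ENSMUSG00000002204, chromosome 7, 44572380 to 44586862, plus strand) encodes napsin A, an aspartic protease that processes the precursor of surfactant protein B. It was at 282, 257 and 262 CPM in WT_PBS, 300, 281 and 296 CPM in WT_CRE, 302, 283 and 300 CPM in CKO_PBS and 266, 339 and 274 CPM in CKO_CRE. Its log2 difference was 0.13 (-0.09 to 0.35, edgeR adjusted p = 0.28) in WT and -0.01 (-0.23 to 0.20, edgeR adjusted p = 0.935) in CKO. *Napsa* overlaps *Gm15396* on the opposite strand, which was at no more than 0.292 CPM.

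*Slc34a2* (ENSMUSG00000029188, chromosome 5, 53038081 to 53071664, plus strand) encodes the sodium-phosphate cotransporter of the type 2 cell's apical membrane. WT levels were 2466, 2412 and 2246 CPM under PBS and 1918, 1623 and 2170 CPM under CRE, and these groups did not overlap. In CKO lungs, at 2863, 2581 and 2752 CPM under PBS and 2624, 1822 and 2279 CPM under CRE, they did. The log2 difference was -0.32 ± 0.15 in WT (edgeR adjusted p = 0.0786) and -0.29 ± 0.15 in CKO (edgeR adjusted p = 0.137). *Etv5* (ENSMUSG00000013089, chromosome 16, 22381309 to 22439719, minus strand) encodes an ETS transcription factor that acts downstream of FGF signals and maintains type 2 cells. WT levels were 203, 191 and 200 CPM under PBS and 162, 143 and 179 CPM under CRE, without overlap. In CKO it was at 231, 169 and 199 CPM under PBS and 205, 164 and 250 CPM under CRE. The log2 difference of *Etv5* was -0.30 ± 0.15 in WT (edgeR adjusted p = 0.111) and 0.05 ± 0.15 in CKO (edgeR adjusted p = 0.821). *Etv5* has a near-identical pseudogene, *Gm4798*, which was at no more than 0.705 CPM. In WT these calls depended on the method: limma-voom gave an adjusted p = 0.0024 for *Slc34a2*, 0.00943 for *Etv5* and 0.0242 for *Napsa* (log2 0.15). In CKO, *Slc34a2* passed by limma-voom (log2 -0.26, adjusted p = 0.032) and in edgeR without CKO_CRE replicate 1 (-0.41, adjusted p = 0.0345), and its value ran from -0.41 to -0.15 with 1 library left out.

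**Figure D2:**
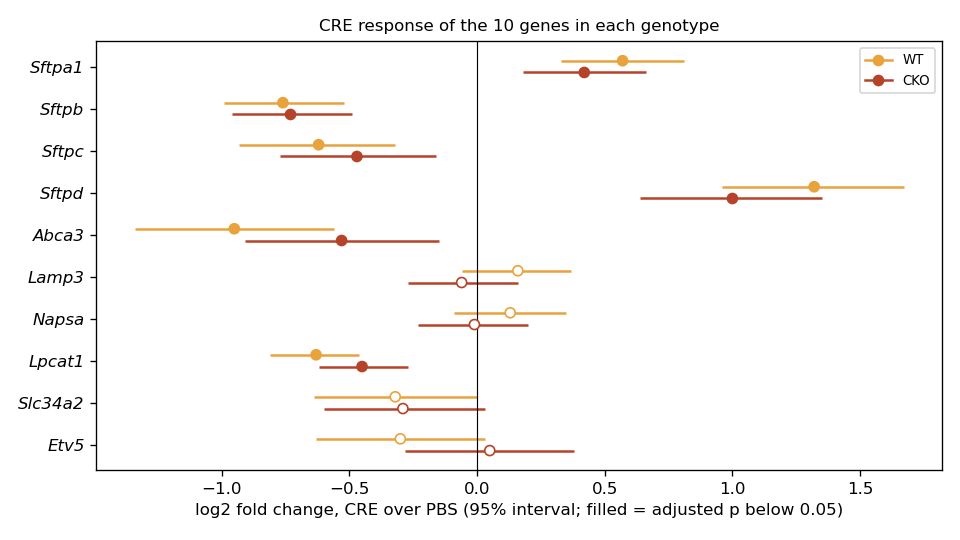
Log2 fold change of CRE over PBS (horizontal axis) for each gene in WT and CKO lungs. Points are edgeR estimates, lines are 95% intervals, and filled points have an adjusted p below 0.05. *Sftpd* and *Sftpa1* lie right of 0 and *Sftpb*, *Sftpc*, *Abca3* and *Lpcat1* left of 0 in both genotypes.

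In CKO lungs the same 6 genes were called in the same directions, 2 higher (20.6% of all tested genes were higher) and 4 lower (18.5% were lower), with 39.1% called in all. These 6 were also the members whose CKO_PBS and CKO_CRE libraries did not overlap, where 49% of tested genes did not. The median log2 fold change was -0.17 over the members and 0 over all tested genes. When only CKO libraries were fitted, 1 member was called higher (12.9% of all tested genes) and 2 lower (10.1%). The members called lower also numbered 2 without CKO_PBS replicate 1 (14.3% of tested genes) or without CKO_PBS replicate 3 (12.1%).

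Within a library, the members' balance shifted. Set against *Sftpc*, whose own count fell, the log2 ratio of *Sftpd* went from -3.77 ± 0.16 in WT_PBS to -1.83 ± 0.02 in WT_CRE and from -3.77 ± 0.19 in CKO_PBS to -2.32 ± 0.54 in CKO_CRE (SD, n = 3). That of *Sftpa1* went from -1.84 ± 0.09 to -0.65 ± 0.08 in WT and from -1.88 ± 0.15 to -0.99 ± 0.24 in CKO. *Lamp3*, *Napsa*, *Slc34a2* and *Etv5* also stood higher against *Sftpc* in all 6 CRE libraries than in all 6 PBS libraries. *Lpcat1* kept nearly the same ratio to *Sftpc*, at -4.61 ± 0.06 in WT_PBS and -4.62 ± 0.14 in WT_CRE. The ratio of *Abca3* went from -4.88 ± 0.04 to -5.22 ± 0.10 in WT, while CKO_CRE replicates 1, 2 and 3 were at -4.77, -5.11 and -4.84. These ratios were not tested. They show unequal change between genes of the set, not which gene moved.

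**Figure D3:**
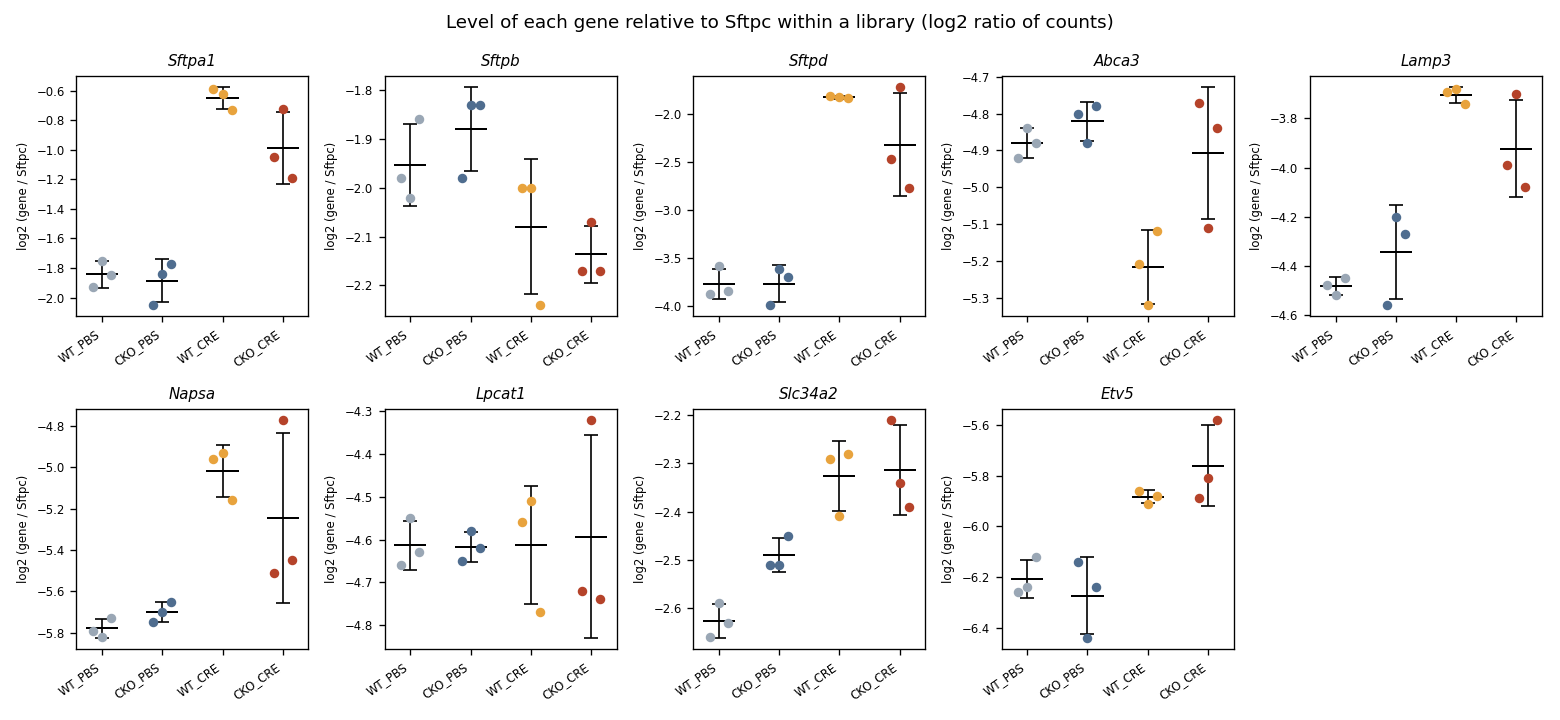
Log2 ratio of each gene's count to that of *Sftpc* in the same library (vertical axis, a separate range for each gene). Points are libraries and bars are the mean ± SD over 3. The ratio of *Sftpd* lies between -3.99 and -3.59 in the PBS libraries and between -2.77 and -1.72 in the CRE libraries.

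The second question was whether the genotypes differed before treatment. Under PBS, 0 of the 10 members were called by edgeR, where 0.109% of all tested genes were called, and 0 had an unadjusted p below 0.05. DESeq2 and limma-voom also called 0. Point estimates were above 0 for all 10, where 50.7% of tested genes were, and ran from 0.01 for *Etv5* to 0.21 for *Lamp3*. The CKO_PBS libraries lay above the WT_PBS libraries without overlap for 3 members, *Sftpb*, *Napsa* and *Slc34a2*, where 7.65% of tested genes did so. *Slc34a2* had the largest of these 3 differences, 0.20 on the log2 scale with a 95% interval of -0.11 to 0.52. For *Sftpc* the interval was -0.24 to 0.37 and for *Sftpd* -0.29 to 0.42. Without WT_PBS replicate 3, the differences of *Sftpa1* and *Sftpd* were -0.01 each.

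Under CRE the comparison of genotypes turned on 1 library. With all 12 libraries edgeR called 0 of the 10 members (0.916% of tested genes were called), and 3 had an unadjusted p below 0.05: *Abca3*, *Lpcat1* and *Etv5*. *Abca3* was at 257 ± 44.2 CPM in WT_CRE and 377 ± 95.7 CPM in CKO_CRE (log2 0.55, 95% interval 0.17 to 0.94, edgeR adjusted p = 0.149). *Lpcat1* was at 386 ± 9.46 and 458 ± 7.72 CPM (log2 0.25, 95% interval 0.07 to 0.42, edgeR adjusted p = 0.162), and it was the 1 member whose WT_CRE and CKO_CRE libraries did not overlap, where 7.37% of tested genes were higher in that way. *Etv5* was at 161 ± 17.9 and 207 ± 43.1 CPM (log2 0.36, 95% interval 0.03 to 0.69, edgeR adjusted p = 0.239).

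CKO_CRE replicate 2 lay within the WT_CRE range for 8 of the 10 members, all but *Napsa* and *Lpcat1*. It was thus picked from these same values, and leaving out a CKO library near WT_CRE tends to widen the genotype difference. Of the libraries left out in turn, it was the only one to give calls among the members. The calls without it are a description, not a test of the genotypes. Without replicate 2, 7 of the 10 members were called, 6 higher (15.8% of tested genes) and 1 lower (12.7%). The log2 difference was then 0.75 for *Abca3* (edgeR adjusted p = 0.00129), 0.50 for *Etv5* (0.0136), 0.37 for *Slc34a2* (0.0348), 0.35 for *Sftpc* (0.0261), 0.26 for *Sftpb* (0.0298) and 0.24 for *Lpcat1* (0.03). *Sftpd* was the member called lower in CKO, at -0.44 (0.0261). Limma-voom with weights for library quality called 8 members with all libraries, 6 higher (23% of tested genes) and 2 lower (20.8%). Such weights can lower the part of an outlying library, and their values are not given here. DESeq2 called 1, *Lpcat1* (4.8% of tested genes). Without a low-count filter edgeR called 1, *Abca3* (adjusted p = 0.0492, 2.14% of tested genes).

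**Figure D4:**
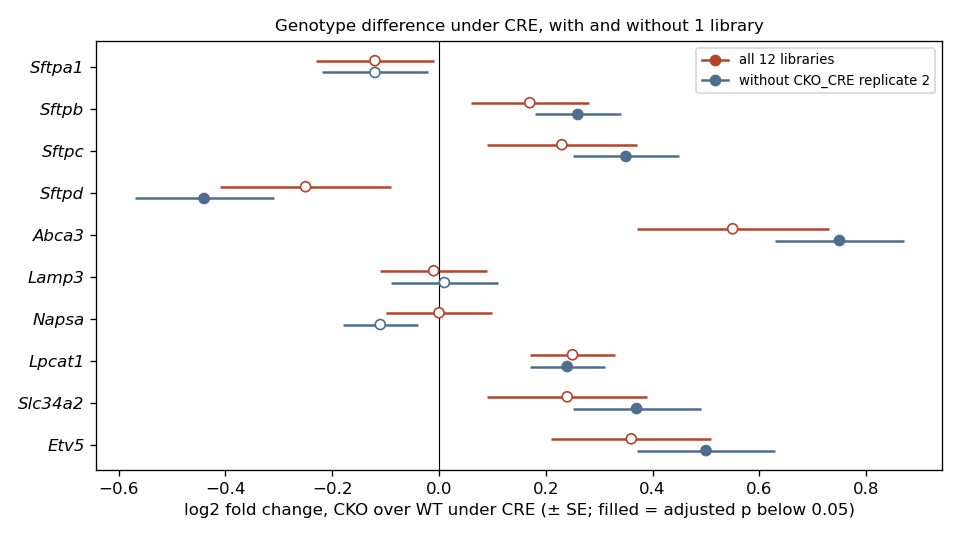
Log2 fold change of CKO over WT under CRE (horizontal axis) for each gene, fitted with all 12 libraries and without CKO_CRE replicate 2. Points are edgeR estimates, lines are ± SE, and filled points have an adjusted p below 0.05. No point is filled with all libraries, and 7 are filled without that library, which was picked from these same values.

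The interaction, which sets the CRE response in CKO against that in WT, was called by edgeR for 0 of the 10 members, where 0.0458% of tested genes were called, and 0 had an unadjusted p below 0.05. DESeq2 called 0 (0.83% of tested genes were called) and limma-voom 4: *Abca3*, *Etv5*, *Sftpd* and *Napsa* (25% of tested genes were called). For *Abca3* the difference was 0.42 on the log2 scale with a 95% interval of -0.12 to 0.96, and for *Sftpd* it was -0.32 with an interval of -0.82 to 0.18. *Abca3* passed without CKO_CRE replicate 2, at 0.62 (edgeR adjusted p = 0.0293, where 14.8% of tested genes were called). This too is a description, since that library was picked from these same values.

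Other genes of the surfactant pathway were read from lists, whose counts are to be read against the 57% of all tested genes called in WT and the 39.1% called in CKO. Of 8 genes for surfactant processing and turnover, 3 rose and 3 fell in WT, and 2 rose and 2 fell in CKO (medians -0.15 and -0.05). *Ctsh*, a cathepsin that helps process surfactant protein B, rose from 301 ± 21.6 to 530 ± 19.2 CPM in WT (log2 0.82 ± 0.10, edgeR adjusted p = 6.41e-05). *Prdx6*, a peroxiredoxin with phospholipase activity on surfactant lipid, fell by 1.34 on the log2 scale, and *Adgrf5*, a receptor that restrains surfactant secretion and is also made by endothelium, fell by 1.62. In CKO the log2 values were 0.57 for *Ctsh* and -0.80 for *Prdx6*, both called.

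Of 22 lipid synthesis genes, 4 rose and 10 fell in WT, and 3 rose and 4 fell in CKO (medians -0.19 and -0.12), beside shares of 57% and 39.1% called among all tested genes. *Chpt1*, which encodes the last enzyme of phosphatidylcholine synthesis, fell from 148 ± 12.6 to 54.3 ± 4.9 CPM in WT (log2 -1.45 ± 0.16, edgeR adjusted p = 4.16e-05) and by 0.83 on the log2 scale in CKO. *Chpt1* overlaps *Sycp3* on the opposite strand. *Gpam*, an acyltransferase of glycerolipid synthesis, fell by 1.09 in WT. *Fabp5*, a fatty acid binding protein that macrophages also make and that has a near-identical pseudogene, rose from 104 ± 3.67 to 517 ± 74.0 CPM in WT (log2 2.32 ± 0.28) and by 1.47 on the log2 scale in CKO, or 0.94 without CKO_CRE replicate 2. *Elovl6*, a fatty acid elongase with a near-identical pseudogene, rose by 0.88 in WT.

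Of 12 transcription factors of type 2 or distal lung epithelium, 3 rose and 6 fell in WT, and 3 rose and 4 fell in CKO (medians -0.38 and -0.17), beside 28.6% higher and 28.4% lower among all tested genes in WT and 20.6% and 18.5% in CKO. The forkhead factor gene *Foxa1* fell from 49.9 ± 1.76 to 26.3 ± 2.47 CPM in WT (log2 -0.92 ± 0.20, edgeR adjusted p = 0.00243), and the glucocorticoid receptor gene *Nr3c1* fell by 1.07 on the log2 scale. *Sox9*, a factor of the distal lung progenitors of the embryo, rose from 1.24 ± 0.162 to 17.8 ± 4.2 CPM in WT (log2 3.82 ± 0.48, edgeR adjusted p = 7.62e-05). It reached 4.3 ± 3.14 CPM in CKO_CRE, lower than in WT_CRE (log2 -2.04 ± 0.43, edgeR adjusted p = 0.0492). That call was lost without any 1 library other than CKO_PBS replicate 2 or CKO_CRE replicate 2 (adjusted p from 0.0619 to 0.182), and when only the CRE groups were fitted (0.264).

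Of 11 genes of FGF signalling and its feedback, the pathway upstream of *Etv5*, 1 rose and 8 fell in each genotype (medians -0.59 in WT and -0.48 in CKO). The 1 that rose was *Etv4*, the close relative of *Etv5*, from 0.283 ± 0.0275 to 3.34 ± 0.928 CPM in WT (log2 3.53 ± 0.52, edgeR adjusted p = 0.000196) and by 1.90 on the log2 scale in CKO, or 1.11 without CKO_CRE replicate 2. The ligand gene *Fgf10*, which has an overlapping antisense gene, fell by 0.99 in WT and 0.86 in CKO, and *Fgf7* by 0.75 and 0.83. The feedback inhibitor genes *Il17rd* and *Spred2* fell by 1.28 and 1.03 in WT, and by 0.76 and 0.66 in CKO.

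Further genes listed as markers of type 2 cells moved both ways. Of 18, 7 rose and 8 fell in WT and 5 rose and 5 fell in CKO (medians 0.12 and 0.02). Leukocyte markers rose in the same libraries, and which cells carried the changes of this list was not tested. *Acoxl*, an acyl-CoA oxidase-like gene, fell from 76.8 ± 8.64 to 10.5 ± 2.29 CPM in WT (log2 -2.87 ± 0.30, edgeR adjusted p = 2.89e-05) and by 1.63 on the log2 scale in CKO. The lysozyme gene *Lyz1* fell by 1.71 in WT, and the calcium-binding protein gene *S100g* fell by 0.63 in WT and 0.72 in CKO. *Il33*, an alarmin that type 2 cells store in mice, rose from 132 ± 12.9 to 869 ± 74.0 CPM in WT (log2 2.71 ± 0.18, edgeR adjusted p = 2.57e-06) and by 1.41 on the log2 scale in CKO. *Dlk1* went from 0.0196 ± 0.034 to 4.99 ± 3.58 CPM in WT.

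Genes that mark the transitional state of injured type 2 cells were mostly higher. Of 14, 12 rose and 0 fell in WT and 11 rose and 0 fell in CKO (medians 1.03 and 0.85). Their summed level was 4195 CPM in CKO_CRE replicate 2, against 2428 and 2117 in replicates 1 and 3, 1120 to 1462 in CKO_PBS and 3117 to 3412 in WT_CRE. *Cldn4*, a claudin of that state, was at 31.3, 35.6 and 27.1 CPM in WT_CRE against 3.54, 3.78 and 3.71 CPM in WT_PBS. In CKO_CRE it was at 8.89, 50.4 and 8.47 CPM, with replicate 2 above every WT_CRE library. The log2 fold change of *Cldn4* was 3.09 ± 0.58 in WT (edgeR adjusted p = 0.000925) and 2.31 ± 0.57 in CKO (edgeR adjusted p = 0.00786), and the CKO call was lost when only CKO libraries were fitted (0.053). Without CKO_CRE replicate 2 the CKO value was 0.94 (edgeR adjusted p = 0.0017). *Tnip3*, an inhibitor of NF-kB signalling, rose by log2 3.40 ± 0.38 in WT and 3.02 ± 0.37 in CKO. Several genes of this list are also made by leukocytes.

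Surfactant is cleared by alveolar macrophages under GM-CSF. Of 12 genes of that axis, 6 rose and 2 fell in WT and 5 rose and 1 fell in CKO (medians 0.87 and 0.78). Of 12 alveolar macrophage markers, 5 rose and 5 fell in WT and 6 rose and 1 fell in CKO (medians -0.18 and 0.66). Leukocyte markers rose too, and which cells carried the changes of the axis was not tested. The receptor subunit gene *Csf2rb* rose from 67.4 ± 3.24 to 140 ± 16.1 CPM in WT (edgeR adjusted p = 0.000102) and by 1.12 on the log2 scale in CKO, and it shares near-identical sequence with *Csf2rb2*. The cholesterol exporter gene *Abcg1* fell by 0.80 on the log2 scale in WT. In CKO the log2 difference was -0.12 (edgeR adjusted p = 0.606).

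Markers of other cells moved along with the members. Leukocyte markers rose (9 of 10 higher and 1 lower in each genotype), with a summed level of 1181 to 1310 CPM in WT_PBS, 1191 to 1597 in CKO_PBS, 2778 to 3153 in WT_CRE and 1828 to 3626 in CKO_CRE. CKO_CRE replicate 2 had the highest of these sums, 3626, against 1828 and 2403 in the other 2. Of 10 club cell markers 9 fell in WT and 7 in CKO, and their sum went from 7698 to 7997 CPM in WT_PBS to 1312 to 1341 CPM in WT_CRE. In CKO it was 5336 to 6464 CPM under PBS and 1348 to 2706 CPM under CRE. Of 12 type 1 alveolar cell markers 11 fell in WT and 10 in CKO, and of 10 endothelial markers 10 and 7 fell. The type 1 marker *Pdpn* was called higher in both genotypes (log2 0.51, edgeR adjusted p = 0.039 in WT, and 0.61, adjusted p = 0.0247 in CKO). Those calls were lost with sex as a covariate (0.15 and 0.0646). The WT call was also lost without any 1 WT library or CKO_PBS replicate 3 (edgeR adjusted p from 0.051 to 0.137). The CKO call was also lost when only CKO libraries were fitted (0.0907) and without CKO_PBS replicate 2 (0.084) or 3 (0.0621). Without CKO_CRE replicate 2 the CKO value of *Pdpn* was 0.31 (edgeR adjusted p = 0.0813). Of 9 pan-epithelial markers 5 rose and 1 fell in WT and 2 rose in CKO. The lists share genes: *Krt8* and *Krt18*, called higher in both genotypes, are also on the transitional list, and *Elf3*, higher in WT, is among the transcription factors. The WT call of *Epcam* was lost with sex as a covariate (edgeR adjusted p = 0.176) and with library totals alone (0.0572). *Cdh1*, which encodes E-cadherin, was at 356 ± 23.3 CPM in WT_PBS and 377 ± 5.27 CPM in WT_CRE (log2 0.08 ± 0.09, edgeR adjusted p = 0.47). Of 7 tested markers of activated dendritic cells, which share *Lamp3*, 4 rose in each genotype and *Socs2*, which has a near-identical copy, fell in CKO (log2 -0.22, edgeR adjusted p = 0.0391, from 0.0534 to 0.108 without any 1 of 8 libraries), while *Ccr7* was at 19.0 ± 1.59 and 18.8 ± 1.03 CPM in WT. None of the markers was at 0 in all 12 libraries. The part of these cells in the members' changes was not tested.

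**Figure D5:**
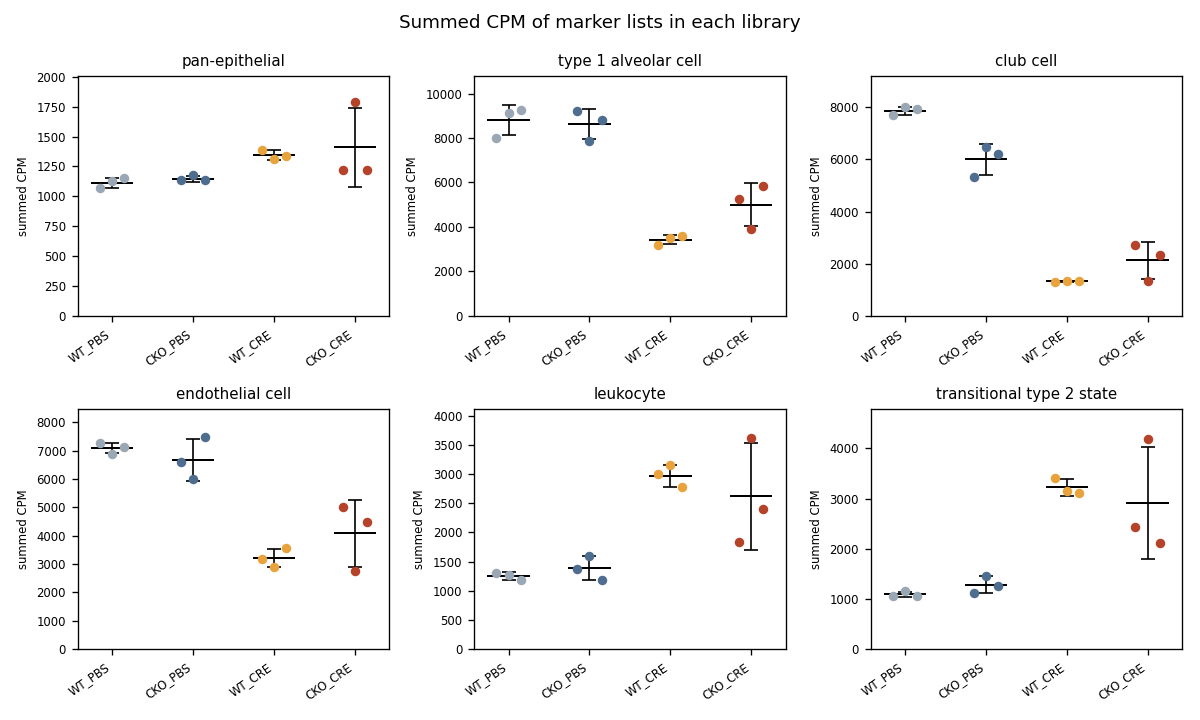
Summed CPM of the genes of 6 fixed lists (vertical axes, from 0) in each library of the 4 groups. Points are libraries and bars are the mean ± SD over 3. Leukocyte sums are at least 1828 CPM in every CRE library and at most 1597 CPM in every PBS library. CKO_CRE replicate 2 has the highest leukocyte, pan-epithelial and transitional type 2 sums.

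Across the 12 libraries the members formed groups by likeness of log2 CPM, given as a description because the libraries share the CRE contrast. *Sftpa1* and *Sftpd* were each other's most like member (Pearson r = 0.973). *Sftpc* and *Abca3* were too (r = 0.98), and *Lpcat1* was most like *Sftpb* (r = 0.953). *Sftpb* and *Sftpd* were the most unlike pair, with r = -0.962. *Lamp3* and *Napsa* had no close match in the set, with highest values of 0.371 and 0.403. The most like genes outside the members were sought among 10051 genes with at least 10 CPM, a number that includes the members. They were *Ctps* for *Sftpd* (r = 0.994), *Ralgds* for *Sftpa1* (0.977), *Ssh2* for *Sftpb* (0.991), *Fam160b1* for *Sftpc* (0.989), *Ptprf* for *Abca3* (0.991) and *Acot1* for *Lpcat1* (0.989).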

How the data were processed

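Lung RNA in 12 mouse libraries was sequenced after poly(A) enrichment with a NEBNext Ultra kit, per the labels' protocols, which do not mention strand. The authors deposited raw read counts per Ensembl gene in 1 table, and the submitters' processing notes name fastp, STAR and mm10 without versions. No source used here gives the counting tool, the annotation behind it, or how it treated strand and multiply mapped reads. Without strand, overlapping genes on opposite strands cannot be told apart.

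Groups came from the sample titles. From these counts, TMM factors, a filterByExpr filter and a model of 4 group means on the 12 libraries were computed in R 4.3.3 with edgeR 4.0.16. Contrasts were tested by quasi-likelihood, and p-values were adjusted by Benjamini-Hochberg over 17473 genes. The common coefficient of variation was 17.4%. Standard errors are the log2 fold change divided by the root of F, and 95% intervals use the matching t quantile. Symbols, positions and exon lengths came from GENCODE M21 (GRCm38), which matched 54495 identifiers. Near-identical copies had at least 98% identity over 200 bases by blastn. Promoters came from RefSeq (GRCm38.p6). The fits were also run on simulated data with few changed genes and the same spread for every gene. That setting does not cover wide change, as under CRE, or an outlying library.

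The members and lists were chosen with earlier results of these data known. Named list genes were, per comparison, the 2 largest rises and 2 largest falls among those called, with at least 1 CPM and no overlap of libraries, plus fixed context genes, and the text describes a part of them. For each member, the most like gene was that with the highest Pearson r over the 12 libraries, leaving out predicted, ribosomal, sex-linked and antigen receptor genes. Alternatives were DESeq2 1.42.0 size factors, library totals alone, the DESeq2 Wald test, limma-voom 3.58.1 with quality weights, no filter, a replicate block, fits of the compared groups alone, sex as a covariate, and each library left out in turn.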

Additional observations from a re-analysis of the deposited data

Results flagged for a closer look

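None of the 10 members was called by edgeR for a CRE response that differed between the genotypes. Among the listed genes, *Plet1*, an alveolar macrophage marker, was. It fell in WT, from 51.5 ± 3.31 to 31.8 ± 4.41 CPM, and rose in CKO, from 46.0 ± 1.76 to 72.6 ± 15.4 CPM, and the difference of the responses was 1.35 ± 0.20 on the log2 scale (edgeR adjusted p = 0.0458). That call was lost without any 1 library other than CKO_CRE replicate 1 or 2 (adjusted p from 0.09 to 0.229), with library totals alone (0.0527), with the replicate block (0.121) and with sex as a covariate (0.0983).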

How the results depend on the processing

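In WT lungs the 6 calls among the members and their directions held under all 20 alternatives run, and the count rose to 7 by the DESeq2 Wald test, 9 by limma-voom, 8 with only the groups compared and 6 to 8 with 1 library left out (4 to 6 lower). The members gained were *Slc34a2* in 6 alternatives, *Etv5* in 4 and *Napsa* in 1. All genes called in WT numbered 9959 (57% of tested genes), and 8529 to 10869 with 1 library left out. The shares of all genes called in WT under the other alternatives are not given here. These counts are therefore not read as a result about the members. In CKO lungs the count of 6 members fell to 3 with only the groups compared (1 higher and 2 lower) and ran from 4 to 7 with 1 library left out (2 higher throughout, 2 to 5 lower). For CKO against WT under CRE the count of 0 became 1 higher by the DESeq2 Wald test, 1 higher with no low-count filter, and 8 by limma-voom (6 higher and 2 lower), and it ran from 0 to 7 with 1 library left out (0 to 6 higher and 0 to 1 lower). For the interaction it became 4 by limma-voom (2 higher and 2 lower) and ran from 0 to 1 with 1 library left out (0 to 1 higher). The cause of these moves was not tested. All genes called under CRE between the genotypes numbered 160, against 838 by the DESeq2 Wald test, 7645 by limma-voom, 691 with no filter, 29 with only the groups compared and 5112 without CKO_CRE replicate 2. The interaction called 8 genes, 128 by DESeq2, 4371 by limma-voom, 81 with no filter, 2 with sex as a covariate, 0 with the replicate block and 2660 without that library. Under PBS 19 genes were called between the genotypes, 114 by DESeq2, 146 by limma-voom, 89 with no filter, 74 with only the groups compared and 12 to 53 with 1 library left out. Under CRE in CKO 6830 were called, 3812 with only the groups compared and 4767 to 7778 with 1 library left out.

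Values near 0 that changed sign, none of them called, were *Napsa* under CRE in CKO (0.00 with no filter, -0.13 to 0.05 with 1 library left out) and *Etv5* there (-0.11 to 0.19). Between genotypes under PBS they were *Etv5* (-0.10 to 0.12), *Sftpa1* (-0.02 to 0.07) and *Sftpd* (-0.01 to 0.15). Under CRE they were *Napsa* (0.00 with DESeq2 size factors and by the DESeq2 Wald test, -0.11 by limma-voom, -0.11 to 0.07 with 1 library left out) and *Lamp3* (0.03 with library totals alone, 0.01 with no filter, -0.06 to 0.06). For the interaction they were *Sftpb* (0.00 with sex as a covariate, -0.02 to 0.12) and *Slc34a2* (-0.03 with sex, -0.09 to 0.17).

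Whether replicate numbers pair the libraries is not known. Deviations of same-numbered libraries correlated at -0.0437 to 0.144 (median 0.0187), with 4 of 18 pairs above 0.1. Both libraries in each of those 4 pairs were of the same sex. Libraries with unlike numbers correlated at -0.234 to 0.157 (median -0.00872), and these values cannot exclude a pairing. With the replicate number as a block 6 members were called under CRE in CKO and 0 in each genotype comparison. In WT, *Etv5* passed with the block (-0.31, adjusted p = 0.0388), so that 7 members were called. No other member's call changed. The shares of all genes called under CRE with the block are not given here.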
